A study of Mus musculus with 12 samples.

Results

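Antioxidant genes of the NRF2 pathway were followed in the lungs and lung adenocarcinomas of cyclin E transgenic mice through 15 probe sets of 10 genes (Nqo1, Hmox1, Gclc, Gclm, Txnrd1, Srxn1, Gpx2, Gpx3, Sod3 and Cat), out of 45101 probe sets on the array. The rule lists members by gene and uses no measured value, though earlier results of these data were known when it was written. Their gene names are those of the list that defines the set, and they were not checked against an annotation of the array. RNA was measured on 12 Affymetrix GeneChip Mouse 430 2.0 arrays, 4 in each of 3 groups of male FVB mice aged 7 to 11 months. The first group was lung of 4 nontransgenic FVB mice, hereafter non-transgenic lung. The other groups came from FVB mice carrying wild-type human cyclin E under the human surfactant protein C promoter, which drives expression in alveolar type II cells; they were normal lung next to a tumor, hereafter adjacent normal lung, and lung adenocarcinoma, hereafter tumor. The series description names 4 transgenic mice as the source of both tissues, whereas the methods call the 12 samples independent, so whether tumor and adjacent normal lung of 1 number share a mouse is not settled. Per the labels tissue was identified by gross pathology, and per the methods the adjacent lung was normal by histopathology; both were taken as bulk tissue, in which fewer cells of a type and less RNA per cell cannot be told apart.

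NRF2 (gene symbol Nfe2l2) is the transcription factor that answers oxidative and electrophilic stress. In resting cells KEAP1 holds it in the cytoplasm and hands it to a ubiquitin ligase for degradation. When reactive molecules modify cysteines of KEAP1, NRF2 builds up, enters the nucleus, pairs with small MAF proteins and binds antioxidant response elements before genes of quinone reduction, glutathione synthesis, thioredoxin recycling and heme breakdown. Loss of KEAP1 or gain of NRF2 is a known route to high activity of these genes in human lung cancer. Sod3, Gpx3 and Cat belong to the wider antioxidant defence and are less strictly tied to NRF2.

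The deposited values were log2 signals, and the median over the whole table was 4.18. A probe set was tested where it lay above that median in at least 4 arrays, which held for 23538 probe sets and for 14 of the 15 members. Groups were compared with limma over all 12 arrays, and a probe set was called at a Benjamini-Hochberg adjusted p under 0.05 over all probe sets tested. Array medians ran from 4.10 to 4.13 in tumors, from 4.18 to 4.19 in non-transgenic lung and from 4.17 to 4.38 in adjacent normal lung. Adjacent normal lung 3 gave the 4.38, and the next highest array was adjacent normal lung 4 at 4.21. Tumor 2 stood nearer to the lungs than the other tumors at several members, and values without it are given beside each result that rests on it. Tumor 2 was singled out after its values were seen. At Sod3 and Gpx3, larger differences and narrower intervals without it follow from that choice, so they are a description and no further test. With 4 samples in a group, limma p-values set each difference against a spread between samples that is pooled over the 3 groups. The small number of arrays limits the precision of these p-values.

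Among the members, the extracellular enzymes showed the widest gap between lung and tumor. Sod3, extracellular superoxide dismutase, is secreted and held on the matrix and vessel walls, where it turns superoxide into hydrogen peroxide (chr5:52363804-52369738, GRCm38.p6). At 1417633_AT its log2 signal was 8.90, 9.26, 9.07 and 9.66 in non-transgenic lung and 9.53, 9.26, 8.98 and 9.51 in adjacent normal lung. In tumors 1 to 4 it was 5.12, 8.88, 5.15 and 4.89. All 4 tumors lay below all 8 lungs, but tumor 2 missed the lowest lung only narrowly. Sod3 at this probe set fell by 3.31 on the log2 scale (SE 0.70, 9.92-fold, limma adjusted p = 0.0052) against adjacent normal lung and fell by 3.21 (9.28-fold, limma adjusted p = 0.0052) against non-transgenic lung. The tumor SD was 1.92, beside 0.26 in adjacent normal lung and 0.33 in non-transgenic lung. The unequal-variance test gave adjusted p = 0.16 and 0.13, so neither decrease passed it. Without tumor 2 it fell by 4.27 (SE 0.19, 19.3-fold, limma adjusted p = 1.8e-08) and fell by 4.17 (18.0-fold, limma adjusted p = 2.2e-08). Tumors 1, 3 and 4 lay between the median of the table, 4.18, and its 75th percentile, 6.47. No detection call was used. How far the folds here depend on the treatment of low signals was not tested.

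The other Sod3 probe set gave the same picture. At 1417634_AT the log2 signal was 7.68, 7.93, 7.90 and 8.47 in non-transgenic lung, 8.28, 8.0, 7.92 and 8.31 in adjacent normal lung, and 4.37, 7.53, 4.60 and 3.75 in tumors 1 to 4. Tumors 1, 3 and 4 were low, tumor 4 even below the median of the table, and tumor 2 was just under the lungs. Those low signals sat around that median, and a level above background was not shown there. The folds at this probe set therefore depend on how low signals were treated. Sod3 fell by 3.07 (SE 0.62, 8.40-fold, limma adjusted p = 0.004) against adjacent normal lung and fell by 2.94 (7.65-fold, limma adjusted p = 0.0043) against non-transgenic lung. The unequal-variance test gave adjusted p = 0.15 and 0.13. Without tumor 2 the decreases were 14.9-fold and 13.5-fold, given as a description. Of all probe sets tested, 0.922% differed more than 1417633_AT and 1.27% more than 1417634_AT in absolute log2 difference between tumor and adjacent normal lung.

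Gpx3, the plasma glutathione peroxidase, is a secreted selenoenzyme that reduces hydrogen peroxide and lipid hydroperoxides (chr11:54902854-54910387). At 1449106_AT its log2 signal was 11.60, 12.10, 12.03 and 12.45 in non-transgenic lung and 12.35, 12.44, 11.83 and 12.24 in adjacent normal lung. Tumors 1 to 4 gave 9.35, 12.00, 8.40 and 9.16. Tumors 1, 3 and 4 were below every lung, whereas tumor 2 lay within the range of the lungs. Gpx3 fell by 2.49 (SE 0.58, 95% interval of the difference -3.76 to -1.22, 5.61-fold, limma adjusted p = 0.0089) against adjacent normal lung and fell by 2.32 (4.99-fold, limma adjusted p = 0.011) against non-transgenic lung. The tumor SD was 1.57, beside 0.27 in adjacent normal lung and 0.35 in non-transgenic lung. The unequal-variance test gave adjusted p = 0.17 and 0.16. Without tumor 2 the decreases of Gpx3 were 9.49-fold and 8.44-fold, given as a description.

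**Figure D1:**
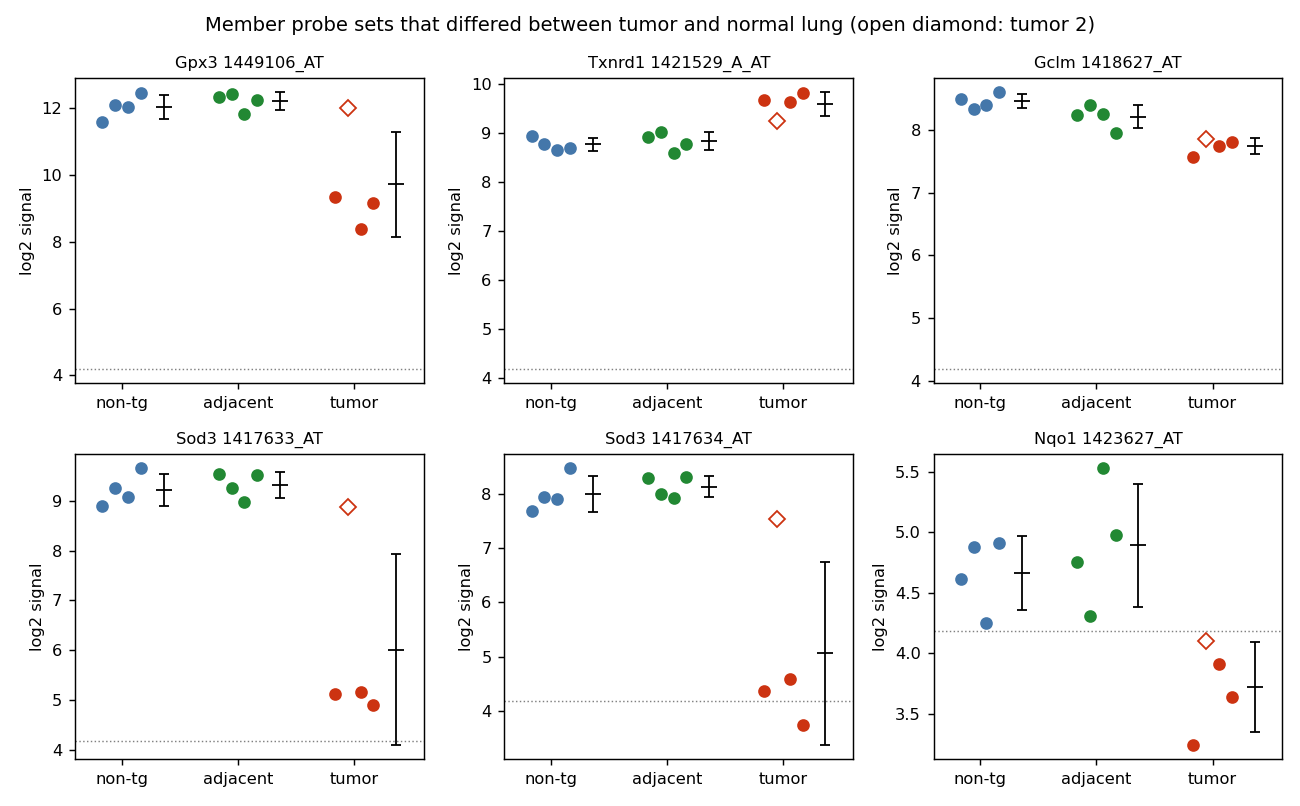
Log2 signal of the 6 called probe sets on each of the 12 arrays (points), with group mean and SD (bars), tumor 2 as an open diamond and the median of the table, 4.18, as a dotted line. Sod3 and Gpx3 separate tumors 1, 3 and 4 from the lungs while tumor 2 stays at 8.88, 7.53 and 12.00; all 4 tumors lie below the dotted line at Nqo1 and above every lung at Txnrd1 1421529_A_AT.

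Nqo1, NAD(P)H quinone dehydrogenase, reduces quinones by transferring a pair of electrons at once, and is among the genes most often used to read NRF2 activity (chr8:107388225-107403205). At 1423627_AT its log2 signal was 4.61, 4.88, 4.25 and 4.91 in non-transgenic lung, 4.75, 4.31, 5.53 and 4.98 in adjacent normal lung, and 3.24, 4.10, 3.91 and 3.64 in tumors 1 to 4. All 4 tumors lay below all 8 lungs. Every tumor was also below the median of the table, so this probe set entered the test only through the lungs, where it is higher, and had to differ in that direction; no detection call was used, and a level above background in tumor was not shown. The fitted differences were -1.17 (SE 0.26, limma adjusted p = 0.0073) against adjacent normal lung and -0.94 (limma adjusted p = 0.019) against non-transgenic lung, given as a description, with no fold. Without adjacent normal lung 3, the highest array here, the difference from adjacent normal lung was -0.96 (limma adjusted p = 0.016). The call against non-transgenic lung was lost without non-transgenic lung 2 (-0.86, limma adjusted p = 0.053), without non-transgenic lung 4 (-0.85, limma adjusted p = 0.055) or without tumor 1 (-0.78, limma adjusted p = 0.058). The unequal-variance test gave adjusted p = 0.1 against adjacent normal lung and 0.071 against non-transgenic lung, so neither difference passed it.

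Glutathione synthesis was read through both subunits of glutamate-cysteine ligase, its rate-limiting enzyme. Gclm, the modifier subunit, raises the affinity of the enzyme for glutamate and relieves its inhibition by glutathione (chr3:122245487-122267215). Its RefSeq promoter window, from 250 bases before the start to 50 after it (chr3:122245307-122245606, plus strand), is shown because it holds letters of the antioxidant response element core in a gene called in tumor. Capitals mark the match, which reads TGACGGTGC on the opposite strand and starts 134 bases before the start.
Gclm: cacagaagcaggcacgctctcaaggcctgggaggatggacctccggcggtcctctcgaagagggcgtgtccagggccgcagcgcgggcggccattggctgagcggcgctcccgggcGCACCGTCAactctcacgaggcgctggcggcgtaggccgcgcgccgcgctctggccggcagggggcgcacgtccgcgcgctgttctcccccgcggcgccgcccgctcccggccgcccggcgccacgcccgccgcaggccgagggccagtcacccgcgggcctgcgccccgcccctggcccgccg

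At 1418627_AT the log2 signal of Gclm was 8.49, 8.34, 8.40 and 8.60 in non-transgenic lung, 8.24, 8.39, 8.26 and 7.95 in adjacent normal lung, and 7.57, 7.85, 7.75 and 7.80 in tumors 1 to 4. The spread within each group was small and all 4 tumors lay below all 8 lungs, adjacent normal lung 4 being the nearest. Gclm fell by 0.71 (1.64-fold, limma adjusted p = 0.0018) against non-transgenic lung and fell by 0.47 (SE 0.13, 1.38-fold, limma adjusted p = 0.019) against adjacent normal lung. The latter call was lost when only the 8 arrays compared were fitted (limma adjusted p = 0.055, and 0.1 with the replicate number as a block as well), though not with that block over all 12 arrays (limma adjusted p = 0.045). It was also lost with each array centred on its median (-0.35, limma adjusted p = 0.061), and without adjacent normal lung 1, adjacent normal lung 2 or tumor 1 (limma adjusted p = 0.051, 0.057 and 0.055). The unequal-variance test gave adjusted p = 0.021 against non-transgenic lung and 0.09 against adjacent normal lung, so only the former decrease passed it.

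Gclc, the catalytic subunit, was not called in either tumor comparison (chr9:77754535-77794489). At 1424296_AT the log2 signal was 10.08, 9.62, 9.50 and 9.40 in non-transgenic lung, 9.64, 9.95, 9.55 and 9.80 in adjacent normal lung, and 9.36, 9.33, 9.68 and 10.19 in tumors 1 to 4. The 3 groups overlapped. The difference was -0.10 (95% interval -0.55 to 0.36, limma adjusted p = 0.76) against adjacent normal lung and -0.01 (95% interval -0.47 to 0.45, limma adjusted p = 0.98) against non-transgenic lung. The difference between the changes of Gclc and Gclm was not tested.

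Txnrd1, cytosolic thioredoxin reductase, is a selenoenzyme that passes electrons from NADPH to thioredoxin (chr10:82833951-82897724). It was the member that rose. At 1421529_A_AT its log2 signal was 8.94, 8.77, 8.65 and 8.70 in non-transgenic lung, 8.92, 9.02, 8.59 and 8.78 in adjacent normal lung, and 9.66, 9.24, 9.62 and 9.81 in tumors 1 to 4. All 4 tumors lay above all 8 lungs, with tumor 2 the closest to them. Txnrd1 rose by 0.75 (SE 0.15, 95% interval 0.42 to 1.08, 1.69-fold, limma adjusted p = 0.0038) against adjacent normal lung and by 0.82 (1.76-fold, limma adjusted p = 0.0021) against non-transgenic lung. The call against adjacent normal lung held with only the 8 arrays compared (limma adjusted p = 0.019) and with the replicate number as a block over all 12 arrays (limma adjusted p = 0.01), and was lost where both were applied (limma adjusted p = 0.057). That rise did not pass the unequal-variance test (adjusted p = 0.068), whereas the rise against non-transgenic lung did (adjusted p = 0.048).

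Of the other 2 probe sets of Txnrd1, 1 was not called and 1 was not tested. At 1424486_A_AT the log2 signal was 4.13, 3.98, 4.28 and 4.65 in non-transgenic lung, 3.84, 4.08, 4.17 and 3.99 in adjacent normal lung, and 4.34, 3.95, 4.09 and 4.44 in tumors 1 to 4. These values sat around the median of the table and the groups overlapped (0.18 against adjacent normal lung, 95% interval -0.18 to 0.54, limma adjusted p = 0.43, and -0.06 against non-transgenic lung, limma adjusted p = 0.82). The remaining one, 1424487_X_AT, ran from 2.28 to 2.85 over all 12 arrays, was above the median in 0 arrays and was the only member not tested. In a fit without the filter its difference was 0.13 (95% interval -0.17 to 0.43) against adjacent normal lung. Against non-transgenic lung it was 0.25 (95% interval -0.05 to 0.55), both given as a description. The suffix of these names marks probes shared by transcripts of 1 gene (A), probes shared by transcripts of several genes (S, as at Srxn1) and probes that may cross-hybridise (X), so that with S and X part of the signal may come from other RNAs. Of 3 RefSeq windows of Txnrd1, the one with a match to the element's core is shown (chr10:82858956-82859255, plus strand), because this is the gene that rose; capitals mark a match on the opposite strand that starts 92 bases before the start.
Txnrd1: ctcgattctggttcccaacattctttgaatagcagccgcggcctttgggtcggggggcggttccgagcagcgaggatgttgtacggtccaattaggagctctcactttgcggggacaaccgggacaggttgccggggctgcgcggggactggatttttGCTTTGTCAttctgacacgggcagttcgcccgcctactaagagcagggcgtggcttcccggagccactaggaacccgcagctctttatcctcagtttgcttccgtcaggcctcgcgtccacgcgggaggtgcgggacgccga

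Srxn1, sulfiredoxin, restores peroxiredoxins whose active cysteine has been overoxidised (chr2:152105524-152111376). Its window holds the most matches of the set and is shown for comparison with the called genes (chr2:152105274-152105573, plus strand). Capitals mark 3 matches, on the opposite strand 158 bases before the start, on the same strand 45 bases before it and on the opposite strand 28 bases after it.
Srxn1: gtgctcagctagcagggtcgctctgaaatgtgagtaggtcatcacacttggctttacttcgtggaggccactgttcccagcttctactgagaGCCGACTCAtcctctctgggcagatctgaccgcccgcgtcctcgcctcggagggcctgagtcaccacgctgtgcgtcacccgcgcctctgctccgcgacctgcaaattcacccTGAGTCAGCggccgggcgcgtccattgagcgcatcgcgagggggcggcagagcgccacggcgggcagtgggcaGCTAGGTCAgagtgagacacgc

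At 1426875_S_AT the log2 signal of Srxn1 was 6.23, 6.02, 5.95 and 6.06 in non-transgenic lung, 6.23, 6.27, 6.57 and 5.91 in adjacent normal lung, and 5.34, 6.54, 5.68 and 6.12 in tumors 1 to 4. At 1451680_AT it was 5.41, 5.14, 5.34 and 5.25, then 5.37, 5.75, 5.25 and 5.23, and 5.09, 5.56, 4.86 and 5.12 in the same order. Tumor 2 was the highest tumor and tumor 1 or 3 the lowest at both probe sets, and the groups overlapped. The differences from adjacent normal lung were -0.33 (limma adjusted p = 0.31) and -0.24 (limma adjusted p = 0.29), and those from non-transgenic lung -0.15 and -0.13 (limma adjusted p = 0.67 and 0.58). Without tumor 2 the difference from adjacent normal lung was called at 1426875_S_AT (-0.53, limma adjusted p = 0.043) but not at 1451680_AT (-0.38, limma adjusted p = 0.056).

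Hmox1, heme oxygenase, splits heme into biliverdin, iron and carbon monoxide and is induced through NRF2 when the repressor BACH1 leaves its enhancers (chr8:75093618-75100593). At 1448239_AT its log2 signal was 6.54, 5.72, 5.34 and 5.87 in non-transgenic lung, 5.79, 6.53, 6.26 and 5.82 in adjacent normal lung, and 6.80, 8.36, 5.92 and 5.49 in tumors 1 to 4. Tumor 2 was above every other array, tumor 1 was also above all lungs, and tumors 3 and 4 lay among them. The difference was 0.55 (SE 0.51, 95% interval -0.56 to 1.65, limma adjusted p = 0.44) against adjacent normal lung and 0.78 (95% interval -0.32 to 1.88, limma adjusted p = 0.26) against non-transgenic lung. Without tumor 2 these were -0.03 (limma adjusted p = 0.96) and 0.21 (limma adjusted p = 0.64), so the sign against adjacent normal lung turned with 1 array.

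Gpx2 is the glutathione peroxidase of epithelia and a known NRF2 target (chr12:76792335-76795554). At 1449279_AT its log2 signal was 7.16, 6.74, 7.21 and 7.18 in non-transgenic lung, 7.07, 7.03, 7.30 and 6.90 in adjacent normal lung, and 6.79, 5.15, 6.30 and 6.86 in tumors 1 to 4. All 4 tumors lay below all 4 adjacent normal lungs, tumor 2 by far, but tumors 1 and 4 were above non-transgenic lung 2. The difference of -0.80 from adjacent normal lung (SE 0.31, 95% interval -1.47 to -0.12) missed the threshold, with limma adjusted p = 0.072, as did that of -0.80 from non-transgenic lung, with limma adjusted p = 0.068. The tumor left out decided the call: without tumor 4 both were called (-0.99 each, limma adjusted p = 0.046 and 0.041), and without tumor 2 the differences shrank to -0.43 and -0.42 (limma adjusted p = 0.065 each).

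Cat, peroxisomal catalase, breaks down hydrogen peroxide (chr2:103453904-103485153). At 1416429_A_AT its log2 signal was 9.20, 9.87, 9.52 and 9.19 in non-transgenic lung, 9.14, 8.78, 9.43 and 9.77 in adjacent normal lung, and 9.33, 9.04, 9.67 and 9.55 in tumors 1 to 4. At 1416430_AT it was 9.27, 9.73, 9.70 and 9.66, then 9.46, 9.10, 9.68 and 9.77, and 9.71, 9.74, 9.79 and 9.38 in the same order. The groups overlapped at both probe sets. The differences from adjacent normal lung were 0.12 (95% interval -0.38 to 0.62, limma adjusted p = 0.72) and 0.15 (95% interval -0.23 to 0.53, limma adjusted p = 0.53), and those from non-transgenic lung -0.05 and 0.07 (limma adjusted p = 0.9 and 0.8).

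**Figure D2:**
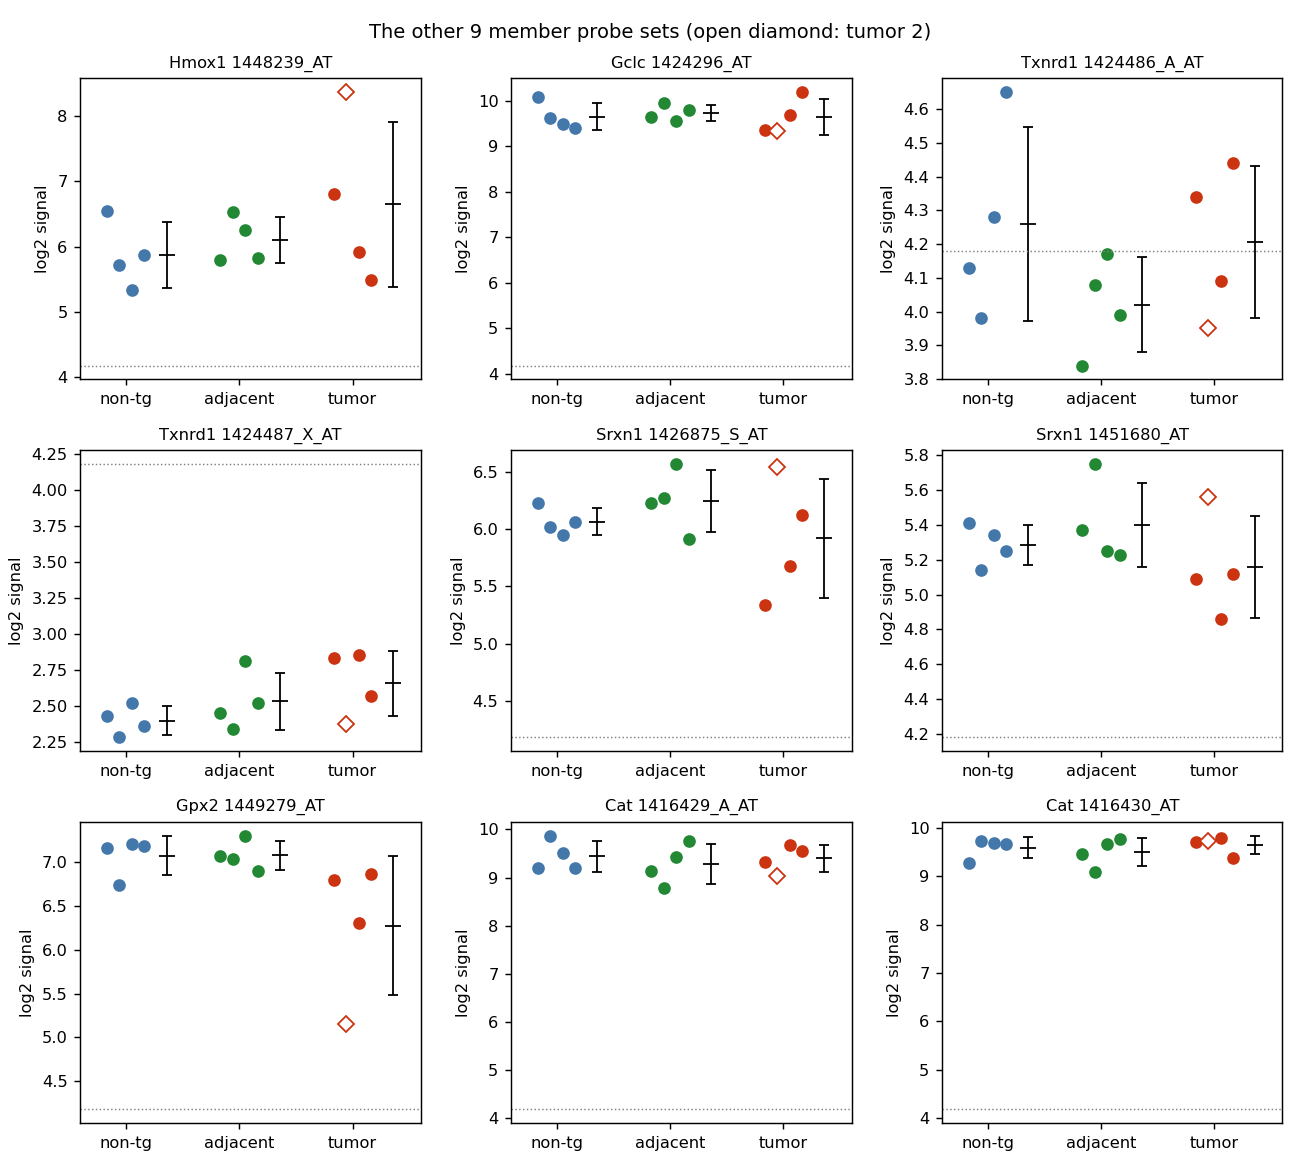
Log2 signal of the 9 probe sets that were not called, on each of the 12 arrays (points), with group mean and SD (bars), tumor 2 as an open diamond and the median of the table, 4.18, as a dotted line. Tumor 2 is the highest array at Hmox1, 8.36, and the lowest at Gpx2, 5.15, while the groups overlap at Gclc, Cat and Srxn1.

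Counted over the set, 1 of the 14 members tested was higher in tumor than in adjacent normal lung, beside 13.2% of all probe sets tested, and 5 were lower, beside 15.6%. The 5 lower probe sets belong to 4 genes, Sod3 (2 probe sets), Gpx3, Nqo1 and Gclm, and Nqo1 passed the filter only through the lungs, so this count is a description of the members and no test of the set. Without Nqo1, 1 of 13 members was higher and 4 were lower. Over all probe sets tested 3102 were higher and 3663 lower. These became 2710 and 3469 with the replicate number as a block (6 members called), 1554 and 2777 with only the 8 arrays compared (5 members), and 1007 and 2275 with both (4 members, Sod3 at both probe sets, Gpx3 and Nqo1). With each array centred on its median the array-wide calls were 4828 higher and 3070 lower, the median difference of all probe sets tested moving from 0.07 to 0.18. The member called higher and the 5 called lower kept their signs under that centring. Without tumor 2, 1 member was higher and 6 were lower, Srxn1 1426875_S_AT being added, beside 23% and 22.1% of all probe sets tested. Nqo1 is among the 6, so this count too is a description.

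Against non-transgenic lung the same 6 probe sets were called, 1 higher beside 15.6% of all probe sets tested and 5 lower beside 16.9%, or 4 lower of 13 without Nqo1. Both comparisons share the tumor arrays. An F-test over the 3 groups called 6 of 14 members, beside 28.6% of all probe sets tested, or 5 of 13 without Nqo1. The median log2 difference of the members tested, Nqo1 included, was -0.29 against adjacent normal lung, where that of all probe sets tested was 0.07. Against non-transgenic lung it was -0.14, again beside 0.07. All 4 tumors lay below all 8 lungs at 4 members (Nqo1, Gclm and Sod3 at both probe sets), beside 10.6% of all probe sets tested, and above them at 1 (Txnrd1 1421529_A_AT), beside 6.98%. With tumor 2 left aside, the other tumors lay below all 8 lungs at 6 members (Gpx3 and Srxn1 1451680_AT being added), beside 19.1%, and above them at the same 1, beside 21.7%. Nqo1 is in both counts below the lungs. It passed the filter only through the lungs, so its place was fixed and these counts describe the members. Without tumor 2 the calls against non-transgenic lung over all probe sets tested went from 3678 to 5719 higher and from 3974 to 5292 lower, while 1 member was higher and 5, Nqo1 among them, were lower.

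**Figure D3:**
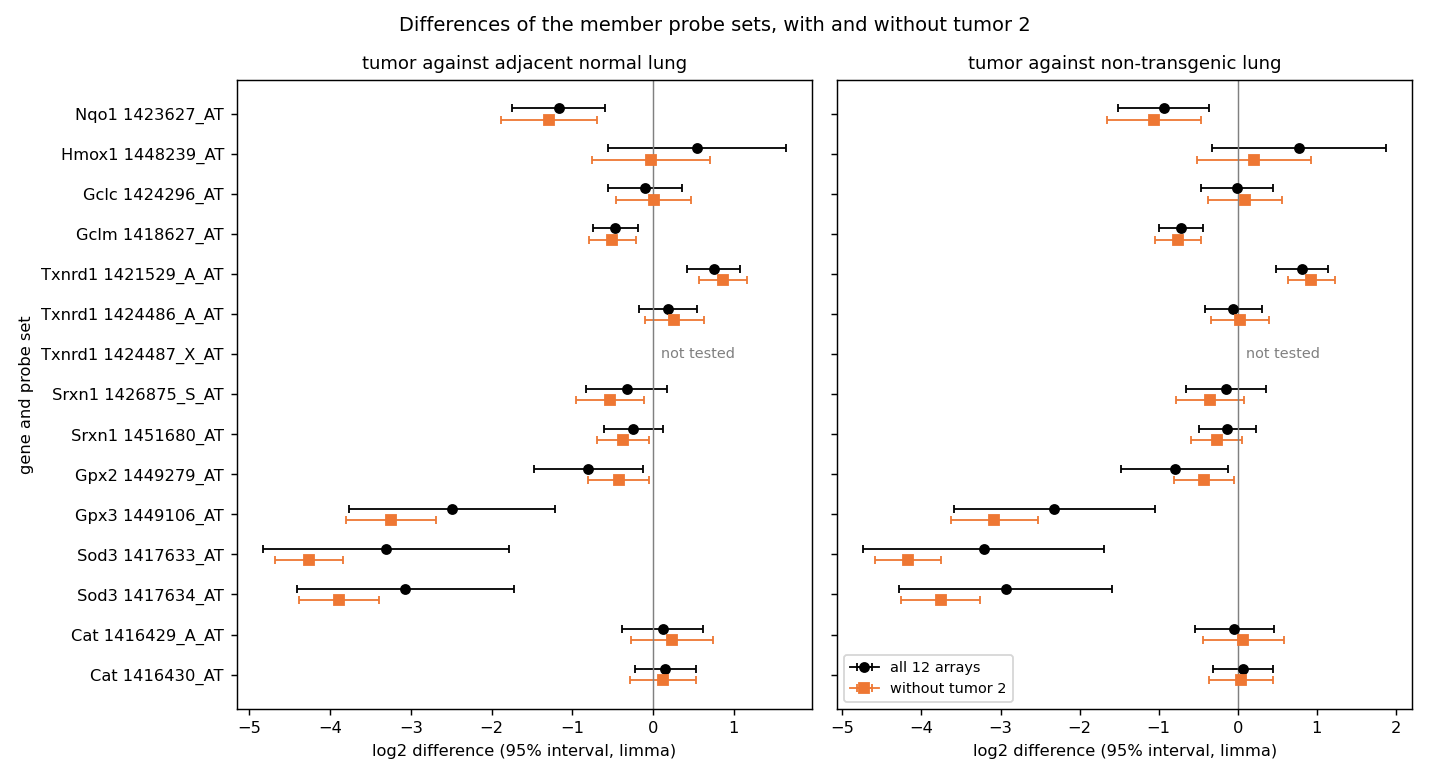
Log2 difference of tumor from adjacent normal lung and from non-transgenic lung at each member tested, with 95% limma intervals, over all 12 arrays (black) and without tumor 2 (orange). Without tumor 2, the array that stood apart, the differences at Sod3 and Gpx3 grow to between -4.27 and -3.08 with narrower intervals, as that choice makes them. The difference at Hmox1 moves from 0.55 to -0.03 against adjacent normal lung.

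Between adjacent normal and non-transgenic lung, which asks whether the tumor-bearing transgenic lung differs outside the tumor, 0 of 14 members were called, beside 0% of all probe sets tested (limma, 0 of 23538). At an unadjusted p under 0.05, limma gave 0 members, and 478 higher and 357 lower over all probe sets tested. The largest differences among the members were those of Gclm (-0.25, 95% interval -0.53 to 0.03), Txnrd1 1424486_A_AT (-0.24), Nqo1 (0.23) and Hmox1 (0.23). The arrays of the groups overlapped at all 15 members, where 4.78% of all probe sets tested had no overlap. For Gclm the order of the group means was non-transgenic lung, adjacent normal lung, tumor, but the difference between the lungs was not called.

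The median SD of the members tested was 0.30 in non-transgenic lung, 0.25 in adjacent normal lung and 0.39 in tumor, beside 0.19, 0.22 and 0.31 over all probe sets tested. At Sod3, Gpx3 and Hmox1 tumor 2 stood far above the other tumors. Its log2 signal exceeded the mean of the other tumors by 3.82 and 3.29 at Sod3, by 3.03 at Gpx3 and by 2.28 at Hmox1, and was 1.50 below it at Gpx2. Over all probe sets tested, 0.412%, 0.875%, 1.2%, 3.35% and 2.92% lay at least as far out on the same side. At Gclm, Txnrd1 1421529_A_AT and Nqo1 tumor 2 differed from the mean of the other tumors by 0.15, -0.46 and 0.50. Tumor 2 was the highest tumor at 8 and the lowest at 5 of the 14 members tested (57.1% and 35.7%), beside 34.9% and 40.2% of all probe sets tested.

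**Figure D4:**
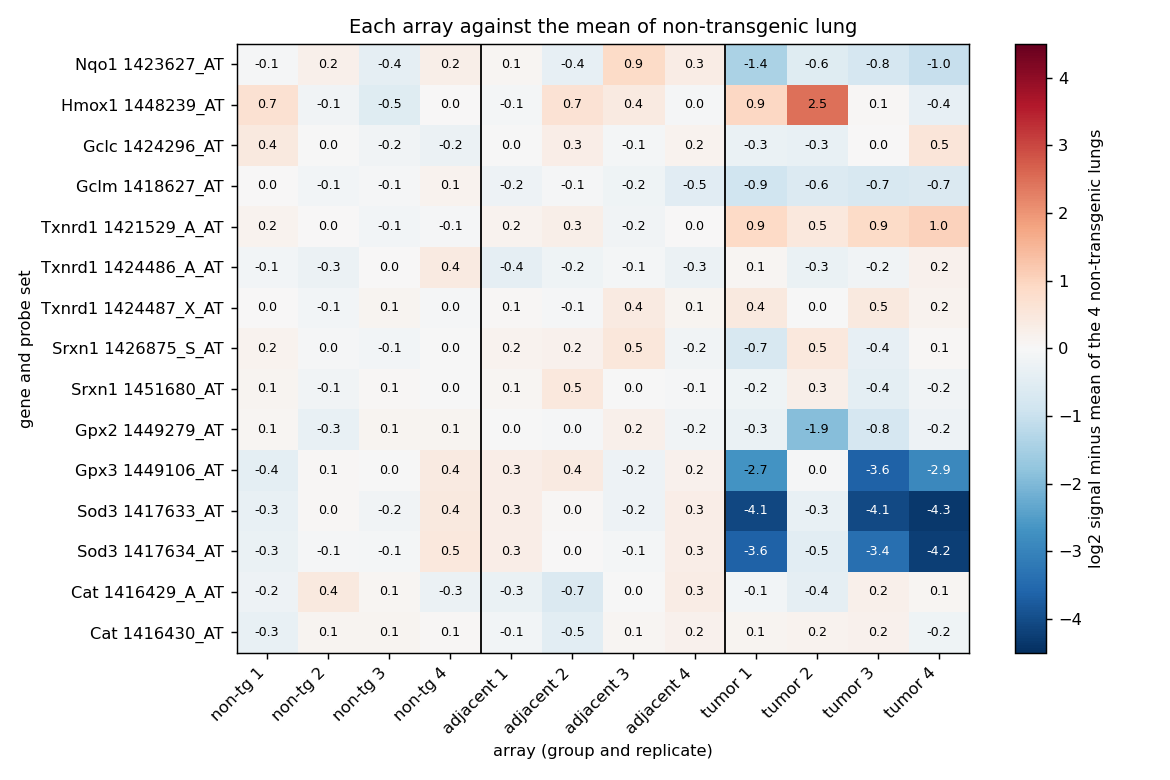
Log2 signal of each member on each array minus the mean of the 4 non-transgenic lungs (colour scale in log2 units, members as lines and arrays as columns). Tumors 1, 3 and 4 share a deep decrease at Sod3 and Gpx3 that tumor 2 lacks, tumor 2 is the high array at Hmox1, and the adjacent normal lungs stay near 0 at Sod3 and Gpx3.

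**Figure D5:**
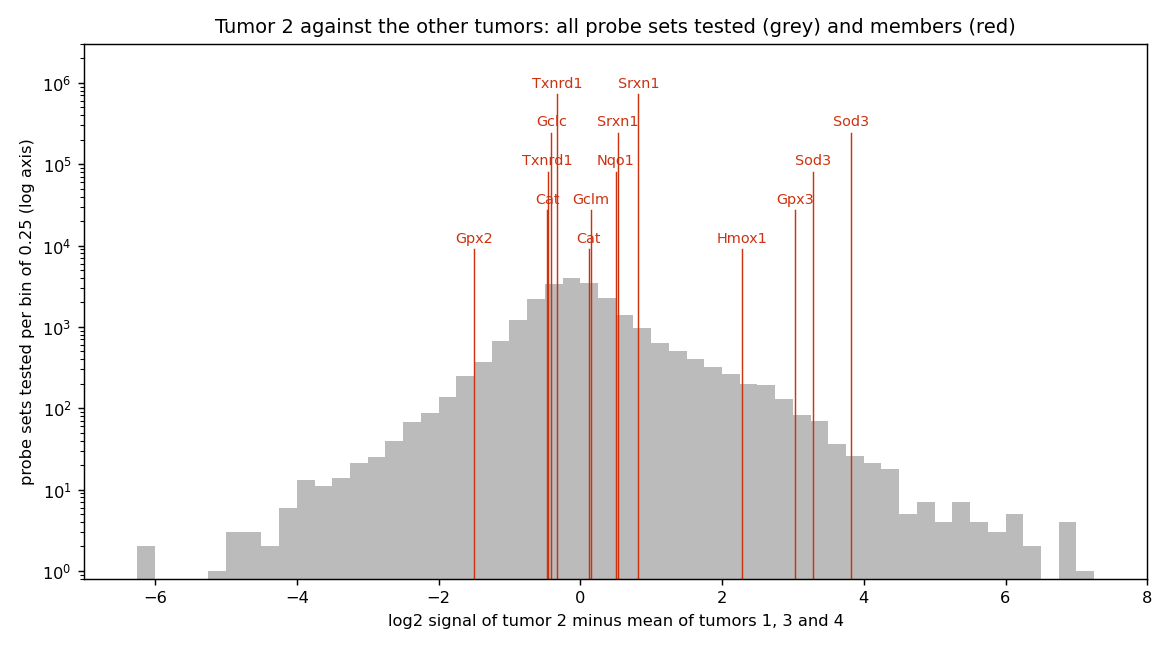
Tumor 2 minus the mean of tumors 1, 3 and 4 over the 23538 probe sets tested (grey histogram, count on a log axis, against the difference in log2 units), with the members in red. Sod3 at 3.82 and 3.29 and Gpx3 at 3.03 lie in the upper tail, Gpx2 at -1.50 in the lower, and most members lie in the body of the distribution.

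The promoter windows were read for the core of the antioxidant response element, searched on both strands as TGACNNNGC and TGAGNNNGC, which cannot both match at 1 position of a strand. RefSeq windows on GRCm38.p6 were used for 7 of the 10 genes, 9 windows in all; those of Hmox1, Gclc and Sod3 were not analysed here. Of 32851 windows of the same length, 12.4% held the first pattern, 17.6% the second and 27.8% either. Among the members, 3 of 9 windows held a match, 1 each of Gclm, Txnrd1 and Srxn1, printed above. Of these genes, in tumor Txnrd1 was called higher at 1 probe set, Gclm lower, and Srxn1 was not called. The windows of Nqo1, Gpx2, Gpx3 and Cat and the remaining windows of Txnrd1 held no such letters, which says nothing of elements outside them.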

How the data were processed

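RNA from 12 mouse lung and tumor samples was hybridised by the authors to Affymetrix GeneChip Mouse 430 2.0 arrays. The deposited table holds log2 signals of 45101 probe sets, from 1.5 to 14.5, normalized across arrays by the authors: their methods name RMA and the submitters' processing notes name GCRMA, and the values do not settle which, and these methods treat low signals differently. Values were used as deposited, without other per-sample columns (0 in the table). Control probe sets were left out. Differences were fitted with limma 3.58.1 in R 4.3.3 (lmFit and eBayes, 3 groups, no block), with Benjamini-Hochberg adjustment over 23538 probe sets tested, after a test on simulated data. The simulated arrays were independent, with the same spread in all groups and no outlying array. That test therefore does not bear on unequal spreads, on tumor 2 or on shared mice. Folds are 2 to the power of the log2 difference.

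The members and lists were chosen with earlier results of these data known. All 15 members are named. Gene names came from the list that defines the set; other genes of the pathway and markers of cell types could not be matched to probe sets, so they were not analysed here and the labelled tissues were not checked against markers. The series description names 4 transgenic mice for both tissues and the tissue codes in the labels run in the order of the replicate numbers, but no label states the pairs and the methods call the 12 samples independent, so no block was used in the reported fit. Deviations of same-numbered tumor and adjacent samples correlated at -0.03, 0.098, 0.069 and 0.11 over the probe sets tested. The fit with the replicate number as a block on only the 8 arrays compared was added after seeing the data. Alternatives were other filters, normalizations, variance models, blocks, the analysis of variance that the methods name for the arrays, their general unequal-variance test and each array left out.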

Additional observations from a re-analysis of the deposited data

Results flagged for a closer look

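In 3 of 45 sets of 4 arrays (6.67%), a value stood apart from the others of its group by Dixon's criterion at the 95% level for 4 values, where chance gives about 1 in 20. Tumor 2 stood apart at Sod3 1417633_AT, with a log2 signal of 8.88 where the other tumors ran from 4.89 to 5.15. Non-transgenic lung 2 stood apart at Gpx2 1449279_AT, with 6.74 where the others ran from 7.16 to 7.21. Non-transgenic lung 1 stood apart at Cat 1416430_AT, with 9.27 where the others ran from 9.66 to 9.73. Over all probe sets tested, an array stood apart in this way in 6.04% for non-transgenic lung, 10.1% for adjacent normal lung and 9.41% for tumor. Adjacent normal lung 3 was that array in 7.62% and tumor 2 in 7.41%.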

How the results depend on the processing

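Of 12 called results of single probe sets, 9 stayed called in every alternative limma fit that tested them and all 12 kept their sign. Nqo1 is among the 12 and among the 9. It passed the filter only through the lungs, so its sign was fixed. These counts, and the member counts below that include Nqo1, describe the members. The exceptions were Gclm and Txnrd1 1421529_A_AT against adjacent normal lung and Nqo1 against non-transgenic lung, with the values given above. Nqo1 did not pass the filter at the 75th percentile and was not tested there. That filter left 5 members called in either tumor comparison, beside 33.2% (against adjacent normal lung) and 34.7% (against non-transgenic lung) of all probe sets tested there. Of 30 results not called, 4 were called in an alternative: Srxn1 1426875_S_AT without tumor 2, Srxn1 1451680_AT without tumor 2 and adjacent normal lung 3 (-0.43, limma adjusted p = 0.039), and Gpx2 in both tumor comparisons. The methods name an analysis of variance for the arrays, and it called 6 of the 14 members tested, adjusted or not. Its share over all probe sets tested was not counted, so this count cannot be read as a result about the members. The limma F-test over the 3 groups, a related test, called 28.6% of all probe sets tested. The methods' general test is an unequal-variance test. Adjusted over all probe sets tested, it passed 0 members against adjacent normal lung and 2 against non-transgenic lung (Gclm and Txnrd1 1421529_A_AT), in place of 6 each. The shares of all probe sets tested were 2.51% and 6.33%. Unadjusted, it gave 6 and 5 members, beside 28.3% and 34.4%. The cause of the lower adjusted counts was not tested. Leaving out each array in turn gave 5 to 7 called members in either tumor comparison and 0 between the lungs, while the share called of all probe sets tested ran from 19% (without tumor 3) to 45% (without tumor 2) against adjacent normal lung and from 22.8% to 46.8% (the same arrays) against non-transgenic lung. The replicate block over 12 arrays left 6 called in either tumor comparison, beside 26.3% and 29.9% of all probe sets tested. Against adjacent normal lung, only the 8 arrays compared left 5, beside 18.4%, and both together left 4, beside 13.9%. Depth is not defined for arrays; signals around the median of the table, as at Nqo1 and Txnrd1 1424486_A_AT, limit those results.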
